A study of Mus musculus with 32 samples.

Results

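The comparison examined here was that of rTg4510 microglia at 4 months of age with rTg4510 microglia at 2 months, which follows the cells over the interval in which tau pathology builds up in this model. It comprised 7 of the 32 libraries of the series, 3 of 4 months (replicates 1, 2 and 4) and 4 of 2 months (replicates 1 to 4), and was chosen by genotype and age. The fourth library of 4 months, replicate 3, had failed the authors' RNAseq QC and was left out. Strain rTg4510 carries 2 transgenes. Human 4-repeat tau with the P301L change lies behind a tetracycline-responsive element, and a tetracycline-controlled transactivator is driven by the CaMKIIα promoter, so tau is made after birth in forebrain neurons and can be repressed with doxycycline. WT littermates without a transgene (strain 129/FVB F1 in the labels) served as controls, with 3 libraries of 4 months and 4 of 2 months, and all animals were female. The genotypes differ in the transactivator as well as in tau. Each library was made from the forebrains of several pooled animals, from which CD11b-positive cells had been captured with magnetic beads.

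Microglia are the resident macrophages of the brain. In the undisturbed brain they hold a homeostatic programme that depends on TGF-beta signalling and on transcription factors such as Sall1, and they survey the tissue through purinergic receptors. Near protein aggregates or dying neurons they take up debris, and a disease-associated programme of lipid-handling, lysosomal and secreted proteins is known to come on while homeostatic genes decline. Defining microglia markers were high in all 7 libraries. P2ry12, the purinergic receptor that guides microglial processes, lay at 10.82, 10.75, 10.94 and 10.86 at 2 months and at 10.37, 10.59 and 10.41 at 4 months on the log2 gene signal scale, and Tmem119, a microglia-specific surface protein, at 11.35 to 11.52 and at 10.76 to 11.08. Both genes were named after their values were seen. Of the 11 microglia markers listed, 3 passed the FDR upwards and 4 downwards, all below 1.5 fold, so that 0 were called.

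Values are log2 gene signals, 1 per gene and library, for 18588 genes, and a difference of log2 values is a log2 fold change. A gene was counted as differentially expressed (DEG) when its FDR was under 0.05 and its change above 1.5 fold, with FDR values from limma adjusted over all genes tested. Where the values of single libraries are listed, those of 2 months are replicates 1, 2, 3 and 4 and those of 4 months replicates 1, 2 and 4. Across all genes the libraries of 1 age correlated with r of 0.956 to 0.963 (9 pairs), and libraries of different ages with 0.931 to 0.949 (12 pairs). The number of genes that sat at a library's lowest value was 91 to 171 at 2 months and 176 to 228 at 4 months, and the 10 highest genes held 35.5% to 40.1% of the summed signal at 2 months and 30.3% to 33.0% at 4 months.

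Between 2 and 4 months 749 genes were up-regulated (4.03% of the genes tested) and 438 down-regulated (2.36%). When the spread was estimated from the 7 libraries alone, the counts were 483 and 183. The shares of 4.03% and 2.36% are the background for the counts of list members called. Since these are bulk preparations, fewer or more cells of a type and less or more RNA per cell cannot be told apart in any of these changes. In WT the same interval gave 7 up-regulated (0.0377%) and 2 down-regulated DEGs (0.0108%). The change in rTg4510 minus the change in WT passed the same thresholds above zero in 701 genes (3.77%) and below zero in 166 (0.893%). The median change over all genes was -0.002 in rTg4510 and 0.015 in WT. Libraries of both ages did not overlap in 1122 of the 1187 DEGs and in 24.1% of all genes. Changes above 2 fold were reached by 300 of the up-regulated and 169 of the down-regulated DEGs, and the median fold was 1.85 and 1.84, respectively. By mean signal, the highest of 4 equal groups of genes held 258 up-regulated and 101 down-regulated DEGs, and the lowest 217 and 133. The plot of change against signal shows the increases spread over the whole range of signal, while most of the largest decreases lay at low signal.

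**Figure D1:**
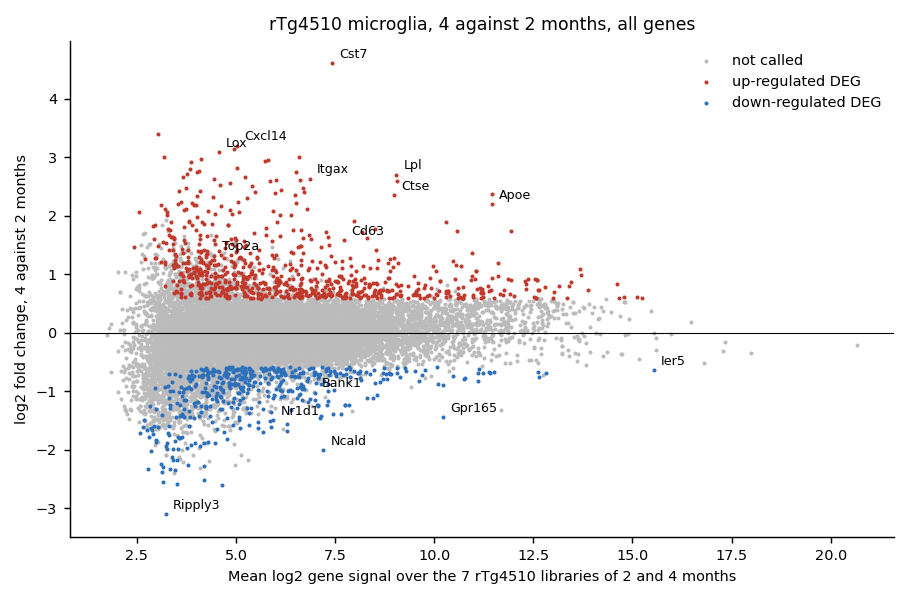
Log2 fold change at 4 against 2 months in rTg4510 (vertical axis) against the mean log2 gene signal of the 7 libraries (horizontal axis), 1 point per gene, with 749 up-regulated DEGs in red, 438 down-regulated DEGs in blue and other genes in grey. Among the named genes Cst7 stands highest at 4.61 and Ripply3 lowest, at a fitted -3.10 that rests on 4-month signals near the lower limit (at least 2.86-fold lower).

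The largest increase among protein-coding DEGs was that of Cst7. This gene, which encodes cystatin F, an inhibitor of lysosomal cysteine proteases, had signals of 5.12, 5.60, 5.78 and 5.29 at 2 months and of 10, 10.02 and 10.16 at 4 months. The lowest library of 4 months stood 4.22 log2 units above the highest of 2 months, and the WT libraries of both ages lay between 3.76 and 4.49. Its change was 4.61 ± 0.222 (SE, FDR = 1.64e-11), a 24.4-fold increase, against 0.16 in WT. Tnfrsf11b, which encodes osteoprotegerin, a soluble decoy receptor of the TNF receptor family, went from 3.69, 3.72, 3.64 and 3.40 to 6.52, 6.97 and 6.78. Its groups were separated by 2.80, and its change was 3.14 ± 0.143 (FDR = 6.14e-12).

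The chemokine genes Cxcl14 and Cxcl13 rose by a similar amount. Cxcl14 moved from 3.97, 3.72, 3.38 and 3.56 to 6.96, 6.95 and 6.68, a change of 3.20 ± 0.31 (FDR = 3.73e-07). Cxcl13, known for attracting B cells, moved from 5.51, 5.09, 5.38 and 5.25 to 8.23, 8.37 and 8.34, a change of 3.0 ± 0.239 (FDR = 2.5e-08). Lox, the lysyl oxidase that cross-links collagen and elastin, changed by 3.09 ± 0.24 (FDR = 1.83e-08) and Dkk2, a secreted modulator of Wnt signalling, by 2.76 ± 0.238 (FDR = 8.07e-08). Both were higher in every library of 4 months than in any of 2 months, which the choice of these genes required. The apolipoprotein gene Apoc1 rose by 2.83 ± 0.25 (FDR = 1.05e-07). Apoc4, a neighbouring apolipoprotein gene, was near the lower limit of the table in every 2-month library and reached 4.85, 4.81 and 5.09 at 4 months, at least 3.35-fold higher. Baiap2l2, which encodes a membrane-bending protein, was near that limit as well and was at least 5.38-fold higher.

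Fxyd6, a regulator of the sodium pump, changed by 2.94 ± 0.418 (FDR = 4.51e-05) with 1 library of 2 months at 5.44 and the others at 4.04 to 4.24. Npas4, a transcription factor best known as a neuronal activity gene, rose by 2.80 ± 0.325 (FDR = 3.9e-06), from 2.19 to 3.04 at 2 months to 4.98 to 6.03 at 4 months. Tmem178, a membrane protein gene, rose by 2.93 ± 0.643 (FDR = 0.00323), and it was the least even of the 12 largest increases, with 6.77 in replicate 2 of 4 months and 4.92 and 4.91 in the others. Its call was lost when the spread was estimated from the 7 libraries alone.

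Of 30 genes listed as disease-associated, 29 were up-regulated and 0 down-regulated, with a median change of 1.25 against 0.04 for the same genes in WT. This list was compiled with results of these data known and its direction is no independent evidence. Itgax, the integrin CD11c, had 5.79, 5.62, 5.74 and 5.78 at 2 months and 8.43, 8.25 and 8.42 at 4 months, and changed by 2.64 ± 0.103 (FDR = 6.89e-13). The ages were separated by 2.46, far beyond the spread within each, and the WT libraries lay at 4.47 to 4.63. Spp1, the secreted protein osteopontin, moved from 5.61, 5.16, 5.27 and 5.29 to 8.03, 8.04 and 8.19, a change of 2.75 ± 0.197 (FDR = 6.2e-09). Csf1, the growth factor of the microglial receptor Csf1r, moved from 7.37, 6.84, 7.31 and 7.07 to 8.98, 8.87 and 9.35, and Igf1, a growth factor, from 5.33 to 5.96 up to 7.45 to 7.72. Their changes were 1.92 ± 0.266 (FDR = 3.47e-05) and 2.01 ± 0.236 (FDR = 4.55e-06). The uptake receptors Axl, which binds ligands on apoptotic cells, and Clec7a, a lectin receptor for beta-glucans, rose by 2.11 ± 0.168 and 2.40 ± 0.231 (FDR = 2.5e-08 and 3.19e-07). Ank, a membrane transporter that exports pyrophosphate, rose by 1.73 ± 0.0911 (FDR = 5.63e-11).

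Trem2, the lipid-sensing receptor through which much of this programme is known to run, was the only listed gene below the fold threshold. It had 10.77, 10.76, 10.95 and 10.53 at 2 months and 11.20, 11.31 and 11.07 at 4 months, and its change was 0.44 ± 0.0764 (FDR = 0.000379). The libraries of both ages did not overlap in Trem2, and its change in WT was -0.16. The difference between these changes was 0.61 (FDR = 0.00124) and passed both thresholds. The mean signal of the 30 genes was 8.81 in rTg4510 at 2 months, 10.45 at 4 months, 10.53 at 6 months and 10.49 at 8 months, while WT stayed between 8.08 and 8.20. Most of the rise therefore fell between 2 and 4 months, as the course of the gene lists over age shows.

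**Figure D2:**
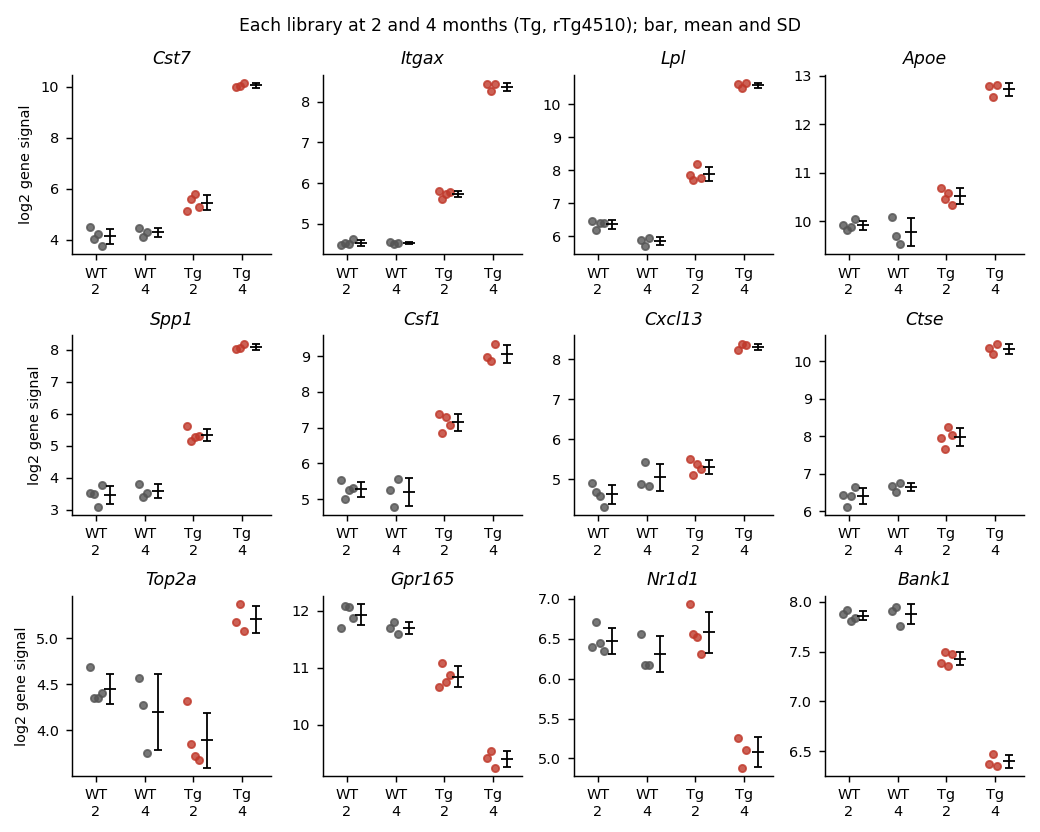
Log2 gene signal (vertical axes) of 12 genes in each library of 2 and 4 months, with WT in grey and rTg4510 (Tg) in red and the mean and SD of each group beside its points. In all 12 genes the 3 rTg4510 libraries of 4 months lie apart from the 4 of 2 months, above them in the 9 genes from Cst7 to Top2a and below them in Gpr165, Nr1d1 and Bank1. The 12 genes were picked among the DEGs, so their separation is no independent evidence. The ages were apart in 1122 of the 1187 DEGs and in 24.1% of all genes.

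Genes of lipid transport and storage were up-regulated in 15 of 24 and down-regulated in 0, with a median change of 0.78 (-0.01 in WT). Lpl, lipoprotein lipase, which releases fatty acids from lipoproteins, had 7.87, 7.69, 8.19 and 7.78 at 2 months and 10.62, 10.49 and 10.64 at 4 months. Its change of 2.70 ± 0.16 (FDR = 3.21e-10) went with a value of -0.51 in WT. Apoe, the main lipid carrier of the brain, moved from 10.69, 10.45, 10.59 and 10.34 to 12.79, 12.57 and 12.80, a change of 2.20 ± 0.144 (FDR = 1.51e-09), and rose further to a mean of 13.48 at 6 months. Acaca, acetyl-CoA carboxylase, the committed step of fatty acid synthesis, went from 4.26, 4.24, 4.41 and 4.26 to 5.97, 5.77 and 6.00, a change of 1.62 ± 0.0639 (FDR = 6.89e-13). Ch25h, which makes the oxysterol 25-hydroxycholesterol, changed by 2.60 ± 0.195 (FDR = 1.22e-08). Among 24 genes of cholesterol synthesis only Dhcr7, a late reductase of the pathway, was called up-regulated (0.60 ± 0.136, FDR = 0.00438), against 4.03% of all genes, and the median change was -0.01. That call was lost without replicate 1 of 2 months, without replicate 4 of 4 months or with a pseudocount of 8.

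Lysosomal hydrolases and membrane proteins were up-regulated in 18 of 49 genes and down-regulated in 0, with a median change of 0.45 (0.01 in WT). Another 16 members passed the FDR with increases below 1.5 fold. Ctse, the aspartic protease cathepsin E, showed the highest change of the list, from 7.96, 7.67, 8.25 and 8.04 to 10.36, 10.19 and 10.46 (2.36 ± 0.148, FDR = 8.54e-10). Grn, progranulin, a lysosomal and secreted protein, had 11.18, 11.22, 11.26 and 11.14 and then 12.12, 12.21 and 12.20, a change of 0.98 ± 0.0573 (FDR = 3.01e-10). Ctsa, the protective protein of lysosomal glycosidases, rose by 0.65 ± 0.0449 (FDR = 3.49e-09), though it was not called under quantile normalization. Cd63, a tetraspanin of late endosomes, changed by 1.58 ± 0.0826 (FDR = 5.54e-11). The pseudogene Cd63-ps changed by 1.74 ± 0.0711 (FDR = 9.78e-13), and since the sources used here do not say how reads matching both were counted, the 2 cannot be told apart. The proton pump that acidifies lysosomes gave 3 up-regulated genes of 16, Atp6v1a (0.66 ± 0.0785, FDR = 5.05e-06), Atp6v0c (0.67 ± 0.107, FDR = 0.000186) and Atp6v0d2, a subunit typical of macrophages and osteoclasts, which was near the lower limit at 2 months and at least 1.62-fold higher at 4 months.

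The promoters of the listed lysosomal genes were read for the CLEAR letters TCACGTG, the recognition sequence of the MiT/TFE factors that govern lysosomal genes, and for the shorter E-box CACGTG inside it. RefSeq promoter windows of GRCm38.p6, which run from upstream of a gene's start to just past it, were held for 39 of the 49 genes. On either strand TCACGTG stood in the windows of 11 of them (28.2%) against 6.54% of the 11802 genes of the table with a window, and CACGTG in 13 (33.3%) against 11.2%. Among the 15 called members with a window, 4 held TCACGTG. The windows of the called members of lowest p that held it, Ctsa at chr2:164833523-164833822 on the plus strand and Ctsd, the aspartic protease cathepsin D, at chr7:142387778-142388077 on the minus strand, are shown 5′ to 3′ with these letters in capitals on whichever strand they stand.
Ctsa: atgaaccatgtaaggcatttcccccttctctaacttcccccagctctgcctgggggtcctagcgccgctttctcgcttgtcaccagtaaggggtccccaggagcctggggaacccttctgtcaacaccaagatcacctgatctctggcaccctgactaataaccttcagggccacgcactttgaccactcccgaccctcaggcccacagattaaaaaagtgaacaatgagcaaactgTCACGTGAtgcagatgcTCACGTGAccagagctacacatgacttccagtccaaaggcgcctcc
Ctsd: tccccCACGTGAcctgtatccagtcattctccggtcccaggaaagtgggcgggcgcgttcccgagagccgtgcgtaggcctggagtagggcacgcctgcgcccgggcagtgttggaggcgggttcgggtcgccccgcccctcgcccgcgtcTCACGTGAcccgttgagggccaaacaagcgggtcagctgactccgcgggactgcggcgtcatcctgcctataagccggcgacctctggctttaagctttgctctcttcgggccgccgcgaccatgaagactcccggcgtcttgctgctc
The Ctsa window holds the letters at 2 places that flank the start, each readable on both strands. A match of letters is a description and says nothing about whether a factor was bound.

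Calls in energy metabolism lay mostly in glycolysis and the hypoxia response. Of 28 measured genes of glycolysis and of the hypoxia response, 13 were up-regulated and 0 down-regulated, with a median of 0.50 (0.01 in WT). Hif1a, the oxygen-regulated transcription factor subunit, moved from 8.26, 8.23, 8.49 and 8.32 to 9.43, 9.47 and 9.63, a change of 1.19 ± 0.0766 (FDR = 1.21e-09). Egln3, a prolyl hydroxylase that is itself a target of this factor, rose by 2.09 ± 0.218 (FDR = 9.98e-07), and the glycolytic enzymes Aldoa and Pkm by 0.86 ± 0.0621 and 0.78 ± 0.0792 (FDR = 7.39e-09 and 6.71e-07). The letters ACGTG, the core of the hypoxia response element, stood in the promoter windows of 21 of 27 listed genes (77.8%) and of 28% of all genes with a window. Part of this list was chosen as targets of the factor, so its high share is no independent evidence. Among the 13 called members with a window 10 held the letters. In the respiratory chain and ATP synthase 71 of 76 genes were not called and 5 were up-regulated, against 4.03% of all genes, with a median of 0.29 (-0.11 in WT). The 5 were Cox6a2, the muscle-type isoform of a cytochrome c oxidase subunit (1.76 ± 0.289, FDR = 0.00024), Ndufa1 (0.92 ± 0.135, FDR = 6.94e-05), Atp5e (0.69 ± 0.0926, FDR = 2.2e-05), Sdhc (0.63 ± 0.128, FDR = 0.00174) and Ndufc1 (0.59), the last named after its value was seen and lost without any of 4 libraries (replicates 1, 2 and 4 of 2 months and replicate 2 of 4 months). Without replicate 2 of 4 months 3 were called, and 13 with the libraries that failed QC added.

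Changes of cytosolic ribosomal proteins were small and even. All 79 had a change above zero, from 0.18 to 0.70, with a median of 0.41 against -0.14 in WT. In 65 of them the FDR was under 0.05, but only 7 exceeded 1.5 fold, among them Rpl39 (0.68 ± 0.109, FDR = 0.000188), Rps2 (0.63 ± 0.106, FDR = 0.000281), Rpl10a (0.70 ± 0.127, FDR = 0.00065) and Rpl36a (0.65 ± 0.118, FDR = 0.000668). The count of 7 fell to 3 without replicate 2 of 4 months and to 4 without replicate 4 of 2 months, and was 2 under quantile normalization and 21 with the libraries that failed QC added. The difference from WT passed both thresholds above zero in 33 of the 79. Ribosomal protein genes have many processed pseudogenes, so the split of reads among copies is uncertain. Of the 31 subunits of the constitutive proteasome 0 were called, 11 passed the FDR with increases and 1 with a decrease below 1.5 fold, and the median was 0.17. Psmd12 (0.30 ± 0.0579, FDR = 0.001) and Psmd14 (0.34 ± 0.0661, FDR = 0.00128) had the lowest p among them.

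**Figure D3:**
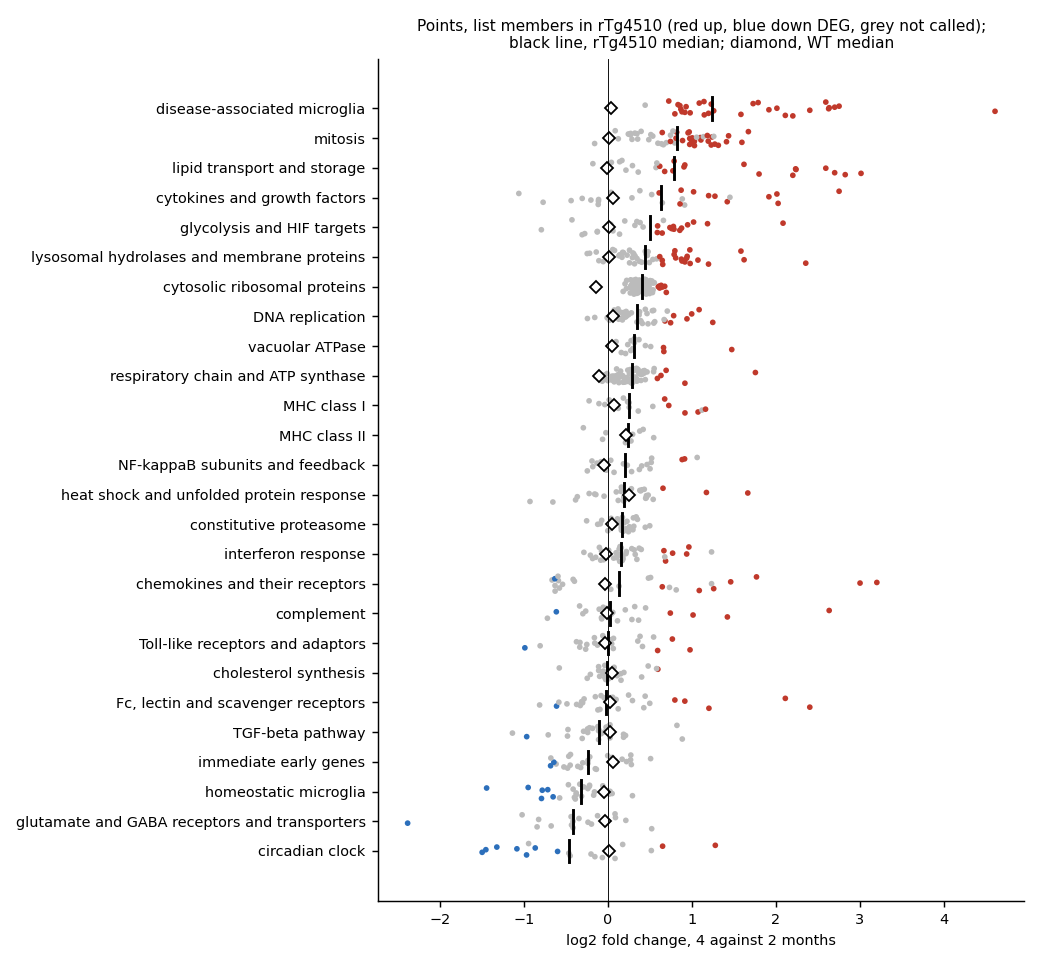
Log2 fold change at 4 against 2 months in rTg4510 (horizontal axis) of each measured member of 26 gene lists, with up-regulated DEGs in red, down-regulated DEGs in blue, other members in grey, the list's median as a black line and its WT median as a diamond. The disease-associated list has the highest median at 1.25 and the circadian clock the lowest at -0.46, while the WT medians lie between -0.14 and 0.25.

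Genes of cell division were up-regulated in part. Of 51 genes of mitosis 26 were up-regulated and 0 down-regulated, with a median of 0.82 (0.01 in WT), and 17 were called without replicate 2 of 4 months and 13 when the spread was estimated from the 7 libraries alone. Top2a, the topoisomerase that untangles chromosomes, had 4.32, 3.85, 3.72 and 3.67 at 2 months and 5.17, 5.37 and 5.08 at 4 months. The WT libraries lay between 3.75 and 4.69, so the 2-month rTg4510 libraries lay within or below the WT range and those of 4 months above it. Its change was 1.32 ± 0.189 (FDR = 5.28e-05), and its mean returned to 3.73 at 6 months. Mki67, the proliferation antigen Ki-67, moved from 4.86, 4.86, 4.34 and 4.40 to 5.79, 5.51 and 5.64 (1.03 ± 0.149, FDR = 5.39e-05). The kinesins Cenpe, which carries chromosomes to the spindle equator, and Kif11, which separates the spindle poles, changed by 1.20 ± 0.155 and 1.11 ± 0.201 (FDR = 1.61e-05 and 0.000633).

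The mean signal of the 51 genes was 3.85 in rTg4510 at 2 months, 4.66 at 4, 3.80 at 6 and 3.87 at 8 months, and in WT 4.08, 4.06, 4.39 and 4.35. These are low signals, and only 9 of the 51 genes passed the filter on low values used as an alternative, of which 5 were called. DNA replication genes gave 7 of 43 up-regulated, 0 down-regulated and a median of 0.35, and 3 calls with the spread of the 7 libraries alone. Mcm6, a subunit of the replicative helicase, went from 4.07, 3.64, 3.94 and 3.79 to 5.06, 5.06 and 5.20 (1.25 ± 0.172, FDR = 3.26e-05). Pole, the leading-strand polymerase, Orc1 of the origin recognition complex and Prim1 of the primase rose by 1.0, 0.94 and 0.78 (FDR = 0.00104, 0.00207 and 0.00335). The difference from WT was not called for Orc1 (0.38, FDR = 0.501), whose WT change was an uncalled 0.56, or for Prim1 (0.63, FDR = 0.138).

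Promoters of the mitosis genes were read for the letters TTTGAA, the cell cycle genes homology region (CHR) bound by the DREAM and B-MYB complexes, and for the CCAAT box, the site of NF-Y. Of 42 listed genes with a window, 34 (81.0%) held TTTGAA on either strand, against 15.0% of all genes with a window, and 30 (71.4%) held CCAAT against 42.6%. Among the 23 called members with a window 19 held TTTGAA and 20 CCAAT. These shares describe the listed genes, whether called or not, and say nothing about binding or about the change with age. The windows of the called members of lowest p that held both, Top2a at chr11:99024140-99024439 and Mki67 at chr7:135716330-135716629, both on the minus strand, are shown 5′ to 3′ with the letters of either motif, on either strand, in capitals.
Top2a: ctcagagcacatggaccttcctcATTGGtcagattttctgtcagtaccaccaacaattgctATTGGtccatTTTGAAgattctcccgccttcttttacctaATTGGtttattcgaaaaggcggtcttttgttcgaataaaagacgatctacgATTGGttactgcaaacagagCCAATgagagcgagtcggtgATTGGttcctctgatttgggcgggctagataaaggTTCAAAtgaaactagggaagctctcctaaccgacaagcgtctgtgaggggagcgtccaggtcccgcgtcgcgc
Mki67: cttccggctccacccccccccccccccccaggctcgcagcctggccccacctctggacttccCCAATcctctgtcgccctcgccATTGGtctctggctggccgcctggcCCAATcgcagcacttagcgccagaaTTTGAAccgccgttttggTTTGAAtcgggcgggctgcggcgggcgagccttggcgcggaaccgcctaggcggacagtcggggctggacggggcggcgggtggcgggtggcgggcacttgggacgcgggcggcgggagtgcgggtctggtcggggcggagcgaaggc
In each window several CCAAT boxes stand upstream of the CHR letters that lie nearest the start.

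**Figure D4:**
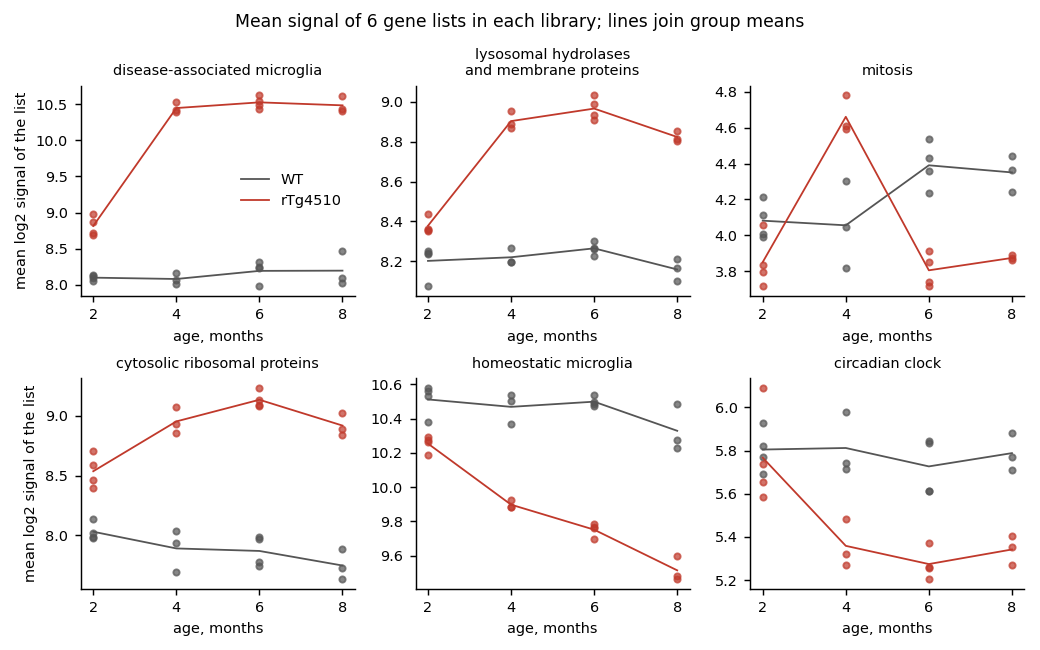
Mean log2 signal of 6 gene lists (vertical axes) in each library against age in months (horizontal axes), with WT in grey, rTg4510 in red and lines through the group means. In rTg4510 the disease-associated list goes from 8.81 to 10.45 between 2 and 4 months and then stays, whereas the mitosis list peaks at 4 months at 4.66 and is back at 3.80 at 6 months.

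Of 25 measured chemokines and chemokine receptors 7 were up-regulated and 1 down-regulated. Besides Cxcl14 and Cxcl13 these included Ccl6, which rose from 8.35, 8.23, 8.61 and 8.23 to 9.69, 9.58 and 9.58 (1.26 ± 0.0873, FDR = 3.74e-09), and Cxcl16, a membrane-bound chemokine and scavenger receptor (1.46 ± 0.154, FDR = 1.1e-06). The chemokine receptor Ccr6, named after its value was seen, fell by 0.63 on the log2 scale (FDR = 0.000644). Of 28 cytokines and growth factors 11 were up-regulated and 0 down-regulated, with a median of 0.63, and Mif, a cytokine released from macrophages, rose by 0.87 ± 0.112 (FDR = 1.48e-05). Among 22 NF-kappaB subunits and feedback genes 2 were up-regulated (against 4.03% of all genes), Bcl2a1b (0.91 ± 0.0998, FDR = 1.87e-06) and Bcl2a1a (0.88 ± 0.11, FDR = 9.87e-06). They are near-identical copies of 1 survival gene, whose separate values are uncertain.

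Complement gave 4 up-regulated and 1 down-regulated of 24 genes, with a median of 0.02. C3, the central component, rose from 4.00, 3.59, 3.28 and 3.49 to 5.01, 4.91 and 5.13 (1.42 ± 0.143, FDR = 5.83e-07). C3ar1, the receptor of its fragment C3a, and Cfb, factor B of the alternative pathway, changed by 0.74 ± 0.0914 and 1.01 ± 0.201 (FDR = 8.17e-06 and 0.00143), and the other up-regulated member was Itgax. C5ar2, named after its value was seen, changed by -0.61 (FDR = 0.0231) and lost its call without replicate 1 or replicate 4 of 2 months or replicate 2 of 4 months. Of 28 Fc, lectin and scavenger receptors 5 were up-regulated, Axl, Clec7a, Fcgr4, an activating receptor for IgG (1.20 ± 0.161, FDR = 2.2e-05), Cd68, a glycoprotein of macrophage lysosomes (0.80 ± 0.0894, FDR = 2.58e-06), and Msr1, a scavenger receptor (0.92). Clec4a2, an inhibitory lectin, fell by 0.61 on the log2 scale (FDR = 3.99e-05), a call lost without replicate 1 or 4 of 4 months, and both were named after their values were seen. Over the whole list 14 changes lay above zero and 14 below, with a median of -0.02.

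Toll-like receptors split. Tlr2, a sensor of lipoproteins, rose from 9.23, 9.07, 9.04 and 8.97 to 9.98, 9.92 and 10.27 (0.98 ± 0.109, FDR = 2.4e-06). Tlr5, the receptor of flagellin, fell from 6.45, 6.70, 6.31 and 6.63 to 5.61, 5.51 and 5.48 (-0.99 ± 0.16, FDR = 0.000212). The 23 genes had a median of 0.00, and the 2 other calls, Tlr1 (0.59 ± 0.108, FDR = 0.000656) and the inhibitory kinase Irak3 (0.77 ± 0.207, FDR = 0.0142), were both lost without replicate 1 or replicate 4 of 4 months, and also without replicate 1 of 2 months (Tlr1) or replicate 4 of 2 months (Irak3). Irak3 had an uncalled change of 0.65 in WT (FDR = 0.252), and the difference between its changes was 0.12 (FDR = 0.877).

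Class I antigen presentation genes and interferon-responsive genes were up-regulated in part. B2m, the light chain of class I molecules, moved from 13.44, 13.49, 13.67 and 13.64 to 14.23, 14.30 and 14.33 (0.73 ± 0.0741, FDR = 7.18e-07). H2-K1 and H2-D1, class I heavy chains, rose by 0.92 ± 0.112 and 1.07 ± 0.133 (FDR = 7.35e-06 and 9.16e-06), and H2-Q7, near the lower limit at 2 months, was at least 1.87-fold higher. With Nlrc5, the class I transactivator (0.68), whose call was lost without replicate 3 of 2 months or replicate 1 or 4 of 4 months, they made up the 5 up-regulated genes of 17. Nlrc5 had an uncalled change of 0.55 in WT (FDR = 0.349), and the difference between its changes was 0.13 (FDR = 0.872). Class I heavy chains are close copies of each other, so their separate values are uncertain. Of 10 class II genes 0 were called, with a median of 0.24 in rTg4510 and 0.22 in WT, and H2-Ob and H2-DMa passed the FDR below 1.5 fold (0.38 ± 0.0571 and 0.55 ± 0.117, FDR = 9.04e-05 and 0.0027). Of 37 interferon-responsive genes 5 were up-regulated and 0 down-regulated (4.03% and 2.36% of all genes), with a median of 0.16. They were Lgals3bp (0.97 ± 0.109, FDR = 2.7e-06), Ifi27l2a (0.94 ± 0.204, FDR = 0.00304), Ifi44 (0.77 ± 0.178, FDR = 0.00477), Ifit2 (0.69 ± 0.177, FDR = 0.0103) and Zbp1 (0.67, FDR = 0.0353, lost without replicate 2 or 4 of either age), and 3 were called without replicate 2 of 4 months. Nlrc5 and Zbp1 were named after their values were seen.

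Of 28 homeostatic genes 6 were down-regulated and 0 up-regulated, with a median of -0.32 (-0.05 in WT), and 8 further members passed the FDR with decreases below 1.5 fold. Gpr165, an orphan receptor, had 10.67, 11.09, 10.75 and 10.88 at 2 months and 9.43, 9.53 and 9.25 at 4 months. Its change was -1.44 ± 0.16 (FDR = 2.37e-06) against -0.23 in WT, and its mean went on to 8.26 at 6 and 7.63 at 8 months. P2ry13, a receptor of ADP, moved from 10.94, 11.02, 11.20 and 11.23 to 10.30, 10.26 and 10.37 (-0.79 ± 0.105, FDR = 2.2e-05), and its WT change of -0.44 went in the same direction. Crybb1, a crystallin expressed in microglia, and Sall1, the transcription factor of microglial identity, fell by 0.78 and 0.65 (FDR = 8.16e-05 and 0.00024). In the TGF-beta pathway only Tgfbr3, the betaglycan co-receptor, was called of 26 genes (-0.97 ± 0.232, FDR = 0.00647), against 2.36% of all genes down-regulated. The median was -0.11, and Tgfbr3 was not called with a pseudocount of 8.

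The clock list held calls in both directions. Of 18 measured genes 7 were down-regulated and 2 up-regulated, with a median of -0.46 (0.01 in WT). Nr1d1, the REV-ERBα repressor, had 6.93, 6.56, 6.53 and 6.31 at 2 months and 5.26, 4.89 and 5.11 at 4 months, while WT libraries of both ages lay at 6.17 to 6.71. Its change was -1.50 ± 0.253 (FDR = 0.000324). The PAR bZIP factors Dbp and Hlf, which are output genes of the clock, changed by -1.08 ± 0.166 and -1.32 ± 0.226 (FDR = 0.000115 and 0.000351), and Per3, a period gene, by -0.97 ± 0.184 (FDR = 0.000975). The repressors Bhlhe40 and Nfil3, named after their values were seen, rose by 1.28 ± 0.297 and 0.65 ± 0.168 (FDR = 0.00494 and 0.0103), and the call of Nfil3 was lost without replicate 4 of 4 months and under quantile normalization. Neither difference from WT was called (1.36 for Bhlhe40, FDR = 0.0541, and 0.31 for Nfil3, FDR = 0.535). Without replicate 1 of 2 months 4 decreases were called, and 2 when the spread was estimated from the 7 libraries alone. With that spread Nr1d1 kept its call, and Dbp, Hlf, Per3 and Bhlhe40 lost theirs. The hour of tissue collection is not given in the sources used here, and its part in these values was not tested. Promoters of the clock list were also read. The letters CACGTG and AGGTCA each stood in the windows of 5 of 15 listed genes (33.3%), against 11.2% and 15.4% of all genes with a window. Of the 7 called members with a window 1 held CACGTG and 2 held AGGTCA.

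Immediate early genes, which are known to respond to cell isolation, had a median of -0.24, and 2 of 26 were down-regulated. Jund, an AP-1 subunit, went from 13.44, 12.94, 13.15 and 12.88 to 12.29, 12.53 and 12.44 (-0.68 ± 0.169, FDR = 0.00828) and Ier5 from 15.98, 15.71, 15.74 and 15.82 to 15.16, 15.21 and 15.14 (-0.64 ± 0.179, FDR = 0.0174). Neither was called without replicate 1 of 2 months, Ier5 also not without replicate 4 of 4 months, and with the libraries that failed QC added the value of Jund was 0.20. In the heat shock and unfolded protein response 3 of 29 genes were up-regulated, against 4.03% of all genes. The median was 0.19 in rTg4510 and 0.25 in WT, where 2 of these genes were up-regulated. When the spread was estimated from the 7 rTg4510 libraries alone, 0 were called in rTg4510. Asns, asparagine synthetase, and Chac1, which degrades glutathione, both targets of ATF4, had changes of 1.17 ± 0.333 and 1.67 ± 0.52 (FDR = 0.0195 and 0.0335) and Sdf2l1, a chaperone of the endoplasmic reticulum, of 0.66 ± 0.133 (FDR = 0.0017), and without replicate 4 of 4 months 0 of the 3 were called and without replicate 1 of 2 months 1.

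Outside these lists the decreases of lowest p, chosen after their values were seen, were of moderate size in genes well above the lower limit. Bank1, a scaffold of B-cell and Toll-like receptor signalling, had 7.39, 7.50, 7.36 and 7.48 at 2 months and 6.38, 6.47 and 6.35 at 4 months, and WT libraries lay at 7.76 to 7.95. Its change was -1.03 ± 0.0645 (FDR = 8.54e-10). Mtss1, a membrane and actin regulator, Ceacam1, an inhibitory adhesion receptor, Med12l, a Mediator subunit, and Prkab1, a subunit of the kinase AMPK, changed by -0.74, -0.71, -0.69 and -0.65 (FDR = 4.62e-08, 1.11e-07, 1.26e-07 and 1.49e-07). Ecscr, a surface protein first described in endothelium, and Cass4, an adhesion scaffold, changed by -1.17 and -1.09 (FDR = 3.73e-07 and 5.56e-07). In each of these 7 genes every library of 4 months lay below every library of 2 months. The ages were likewise apart in 1122 of the 1187 DEGs and in 24.1% of all genes, so this separation is not particular to them.

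In 9 of the 12 largest decreases every 4-month library was near the lower limit, so that only a bound can be given. Ripply3, a developmental transcriptional repressor, had 4.43, 5.13, 3.49 and 5.16 at 2 months and 1.55, 1.35 and 1.45 at 4 months, at least 2.86-fold lower. Bounds for the others were at least 2.98-fold for Rnase12, 2.32-fold for Lmx1a, a transcription factor of the roof plate and of dopamine neurons, 2.19-fold for Gabrb1, a GABA-A receptor subunit, 1.67-fold for Nefm, a neurofilament, 2.15-fold for Cavin3, a caveolar coat protein, 2.48-fold for Magee2, 2.40-fold for Gmnc, a regulator of multiciliated cells, and 2.36-fold for F2rl1, a protease-activated receptor. Ncald, a neuronal calcium sensor, had high signals at both ages, 8.16, 8.10, 7.72 and 8.30 at 2 months and 5.99, 6.35 and 5.84 at 4 months (-2.01 ± 0.424, FDR = 0.0024). Adamtsl1, a matrix protein, and Olfr78, an olfactory-type receptor, changed by -2.53 ± 0.81 and -2.29 ± 0.704 (FDR = 0.0389 and 0.0311), and Adamtsl1 lost its call without any library but replicate 4 of 2 months and replicate 1 of 4 months, Olfr78 without replicate 2 or 3 of 2 months or replicate 1 or 4 of 4 months. Calls were also lost for Rnase12 without replicate 4 of 4 months, for Lmx1a without replicate 2 of 4 months and for Magee2 without replicate 2 of 2 months or replicate 4 of 4 months. Gmnc was called only without replicate 3 of 2 months or replicate 1 of 4 months, and F2rl1 only without replicate 1 or 3 of 2 months, when 1 library was left out. Of the 17 measured receptors and transporters of glutamate and GABA, Gabrb1 was the one called, with a median of -0.41 (-0.04 in WT). Among all DEGs 35 of the 438 decreases and 33 of the 749 increases had 1 age near the limit in every library. Of the 12 largest decreases 2 passed the test of the difference from WT, and of the 12 largest increases 11.

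Markers of other cell types that a CD11b preparation could hold were read in 13 lists. Of 104 measured markers 3 were down-regulated and 3 up-regulated, against 2.36% and 4.03% of all genes. The change lay below zero in 91 of the 104 markers and in 50.2% of all genes. Of the 13 medians 12 were below zero in rTg4510 and 7 in WT. The lowest median was that of ependyma and choroid plexus, -1.16 over 4 measured markers (-0.14 in WT), and its summed log2 signal ranged from 11.44 to 12.83 at 2 months and from 10.45 to 11.75 at 4 months. Ttr, the transthyretin made by the choroid plexus, lay at 12.79, 12.22, 12.60 and 11.40 and then at 11.72, 10.66 and 10.40, overlapping between ages (-1.32 ± 0.73, FDR = 0.257), and Kl, klotho, changed by -1.40 (FDR = 0.225). WT libraries varied as widely in Ttr, from 9.95 to 13.36. Summed neuron markers ranged from 6.70 to 7.27 at 2 months and from 6.02 to 6.42 at 4 months (7 of 13 markers measured), mural cell markers from 7.32 to 7.95 and from 6.73 to 7.21, and endothelial markers from 8.05 to 9.30 and from 7.83 to 8.49. Summed B cell markers ranged from 13.07 to 13.18 and from 12.71 to 12.79, and astrocyte markers from 10.22 to 10.66 and from 9.94 to 10.21. Border macrophage markers ranged from 10.88 to 11.21 and from 10.58 to 10.84. Summed T and NK cell markers ranged from 6.69 to 6.87 and from 7.02 to 7.43, with a median change of 0.05. The sums of monocyte, neutrophil, oligodendrocyte, oligodendrocyte precursor and erythroid markers overlapped between ages. The part of such cells in the large decreases of low signal was not tested.

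The marker genes that were called did not all follow their lists. Cspg4, the proteoglycan NG2 of oligodendrocyte precursors, rose from 3.07, 3.15, 3.31 and 2.72 to 5.36, 5.27 and 5.81 (2.42 ± 0.211, FDR = 9e-08), whereas the median of its 5 measured list members was -0.92. Pecam1, the adhesion molecule CD31, changed by -0.88 ± 0.152 (FDR = 0.000382) and Flt1, a receptor of VEGF, by 0.78 ± 0.262 (FDR = 0.0488), and the call of Flt1 was lost without any of the 7 libraries but replicate 3 of 2 months. Nefm was called among neuron markers, Mmp9, a granule protease, fell by 0.65 among neutrophil markers (FDR = 0.0171, a call lost without replicate 1 of 4 months), and Klrb1c, the NK cell receptor NK1.1, rose by 1.19 ± 0.268 (FDR = 0.00385) among T and NK cell markers. In border macrophages, monocytes, B cells, astrocytes, oligodendrocytes, mural cells, erythroid cells and ependyma with choroid plexus 0 markers were called by limma, with 1 astrocyte and 1 B cell marker past the FDR alone. The called markers, Ttr and Kl were named after their values were seen.

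**Figure D5:**
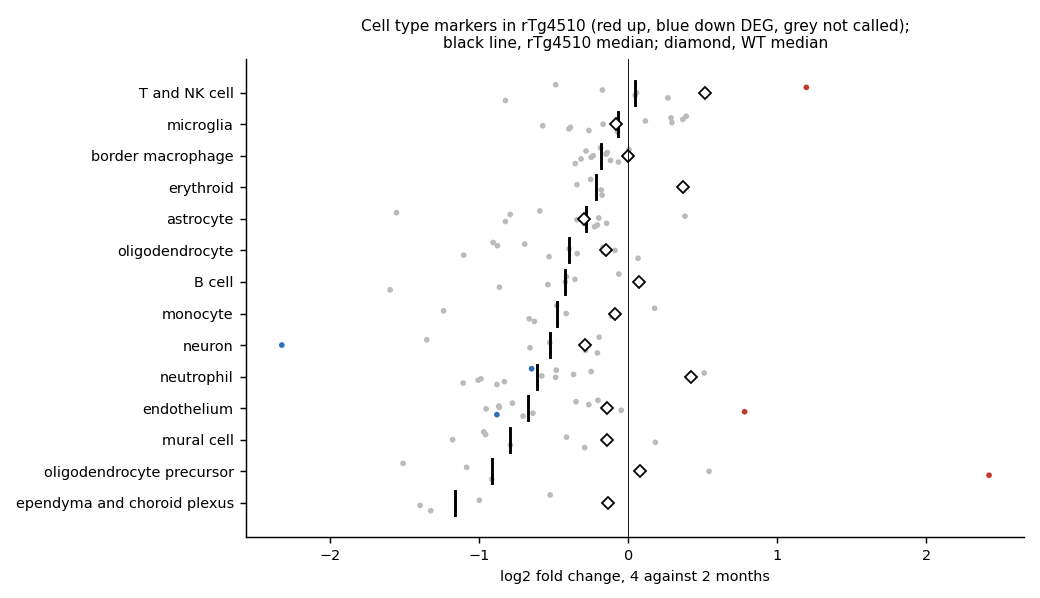
Log2 fold change at 4 against 2 months in rTg4510 (horizontal axis) of each measured marker of 14 cell types, with up-regulated DEGs in red, down-regulated DEGs in blue, other markers in grey, the rTg4510 median as a black line and the WT median as a diamond. The medians of 12 of the 13 lists of other cells lie below zero in rTg4510, that of ependyma and choroid plexus lowest at -1.16, and microglia markers lie at -0.07.

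Ageing from 2 to 4 months in WT served as the reference. Hsph1, a heat shock protein of the HSP110 family, rose in WT from 6.03, 6.03, 6.09 and 6.34 to 7.70, 7.34 and 7.69 (1.46, FDR = 0.00336), and in rTg4510 it had 6.07, 6.04, 5.76 and 6.34 and then 6.70, 6.47 and 6.60 (0.54 ± 0.196, FDR = 0.0698). The difference between the changes was -0.92 (FDR = 0.0489). The co-chaperones Dnaja1 and Stip1 rose in WT by 0.89 and 0.74 (FDR = 0.0179 and 0.0369) and changed in rTg4510 by 0.19 each. Hmga2, a chromatin protein, fell in WT by 0.59 (FDR = 0.0354) and changed by -0.39 in rTg4510 (FDR = 0.0178, below 1.5 fold). Dnaja1, Stip1 and Hmga2 lost their WT calls without any of several WT libraries, replicates 1 and 4 of 4 months among them for each. With the spread of the WT libraries of 2 and 4 months alone 0 genes were called by limma, and 1650 had an unadjusted p under 0.05.

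Of the protein-coding genes without overlap between ages, the largest differences above zero were those of Cst7 (4.46, FDR = 1.55e-08), Dkk2 (3.53, FDR = 1.07e-06), Tnfrsf11b (3.47, FDR = 1.07e-09) and Lox (3.44, FDR = 1.65e-06). Rem1 and Lrrtm3 came next. Rem1, a small GTPase, had a change of 1.87 in rTg4510 and an uncalled -1.54 in WT (FDR = 0.171), with a difference of 3.41 (FDR = 0.00112). Lrrtm3, a synaptic adhesion protein, had 2.51 in rTg4510 and an uncalled -0.89 in WT (FDR = 0.326), with a difference of 3.40 (FDR = 8.96e-05). Below zero, Ripply3 (-3.57, FDR = 0.00475) and Gabrb1 (-3.29, FDR = 0.0098) rested on rTg4510 libraries near the lower limit. Tas2r135, a taste-type receptor, Tcstv1, Fam83g and Acer2, an alkaline ceramidase of the Golgi, had differences of -2.04, -2.0, -1.96 and -1.85 (FDR = 0.0466, 0.0098, 0.0188 and 0.0387). Acer2 was not called in rTg4510 itself (-1.05, FDR = 0.0664), and its WT change was an uncalled 0.79 (FDR = 0.484). In Fam83g the libraries lay at 5.10, 5.33, 5.44 and 5.30 at 2 months and at 3.34, 3.38 and 3.49 at 4 months, while WT lay at 4.76 to 5.68. Tas2r135 and Acer2 lost their calls without most single libraries, the exceptions being rTg4510 replicates 1 and 3 and WT replicate 4 of 2 months for Tas2r135 and replicate 2 of 2 months of either genotype for Acer2.

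The sources used here do not say how reads of the human transgene were counted. Mapt, the mouse gene of tau, had 4.47, 4.68, 4.70 and 4.32 at 2 months and 4.88, 3.91 and 4.30 at 4 months, with no call (-0.18 ± 0.453, FDR = 0.85), and WT libraries lay at 4.14 to 5.60. Prnp, the prion gene, had a value of 0.74 ± 0.39 (FDR = 0.235), with 7.34, 8.23, 7.83 and 6.99 and then 8.31, 8.61 and 8.08, overlapping in 1 library.

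Of the DEGs, 862 were protein-coding (72.6%, against 74.5% of all genes), 203 pseudogenes (17.1%, against 15.2%) and 58 long non-coding RNAs (4.89%, against 4.55%), with 28 of the latter up-regulated and 30 down-regulated. Gm5182, the pseudogene of lowest p, named after its value was seen, had 9.50, 9.44, 9.49 and 9.50 at 2 months and 11.42, 11.24 and 11.49 at 4 months (1.90 ± 0.0698, FDR = 5.13e-13). Reads of a pseudogene and its parent gene may not be separable in these values. Among long non-coding RNAs Gm10389 rose from 3.94, 3.47, 3.28 and 4.10 to 6.01, 5.76 and 5.80 (2.16 ± 0.264, FDR = 7.43e-06), with WT at 2.35 to 3.46. 5430400D12Rik showed the largest increase of this class, 2.72 ± 0.716 (FDR = 0.0122), from 2.66, 3.75, 1.38 and 2.62 to 5.05, 5.35 and 5.56, but its WT libraries lay at 3.78 to 5.33, so the 4-month rTg4510 values overlapped those of WT. Its call was lost without replicate 4 of 4 months. D930048N14Rik changed by -1.89 ± 0.534 (FDR = 0.0192), and Gm17501 was near the lower limit at 4 months and at least 3.31-fold lower. The call of D930048N14Rik was lost without replicate 1 of 2 months or replicate 2 or 4 of 4 months, and that of Gm17501 without replicate 4 of 2 months or replicate 1 or 4 of 4 months.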

How the data were processed

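The authors deposited log2 gene signals, each fitted over a gene's exons with a robust linear model and scaled so that all libraries share 1 median (GRCm38 per the submitters' processing notes). Repeat runs of a library had been added together, and sparsely covered exons (below 10 reads in over 80% of libraries) had been removed. The aligner and the annotation are not given in the sources used here. The study's methods give an approximate common depth target for its paired-end libraries, but these signals carry no totals per library, so the number of libraries is taken to limit precision. The lowest values lie on steps of log2(count + 1.5), inferred from the values. Signals within 3 counts of a library's lowest value were called near the lower limit, and folds against a group wholly there were given as bounds against it.

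Linear models with 8 group means were fitted with limma 3.58.1 (R 4.3.3) to the 28 libraries that passed QC, with unmoderated variances on 20 residual degrees of freedom. P-values were adjusted by Benjamini-Hochberg over 18588 genes per comparison, and genes past an FDR of 0.05 and 1.5 fold were called DEGs. Replicates are separate libraries of pooled animals, no 2 of which were identical. The models were tested on simulated data. Alternatives were moderated variances, only the groups compared, all 32 libraries, quantile normalization, a filter at the 25th percentile of mean signal, a pseudocount of 8, replicate blocks, FDR alone, and leaving out each library.

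The comparison and the gene lists were chosen with earlier results of these data known. Named genes were the 12 largest increases and decreases among protein-coding DEGs without overlap between ages, up to 4 DEGs of lowest p per list (or 2 members where there were none), the 6 largest differences from WT in each direction, the 3 largest WT changes in each direction, 2 long non-coding RNAs in each direction, and Mapt and Prnp. Genes named after their values were seen are marked in the text or are Trem2, Ndufc1 and Cd63-ps. Promoters came from a RefSeq table (GRCm38.p6), and the windows shown are those of the called members of lowest p that held every motif searched for their list.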

Additional observations from a re-analysis of the deposited data

Results flagged for a closer look

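The change from 2 to 4 months differed between rTg4510 and WT, by the test of the difference itself in limma, in 701 genes above zero and 166 below. Among the genes with the largest increases in rTg4510 the differences in log2 fold change were 4.46 for Cst7, 3.53 for Dkk2, 3.47 for Tnfrsf11b, 3.44 for Lox, 3.12 for Baiap2l2, 3.10 for Cxcl14, 3.09 for Apoc1, 2.82 for Apoc4, 2.58 for Cxcl13, 2.50 for Npas4 and 2.33 for Fxyd6. The 2-month rTg4510 libraries of Baiap2l2 and Apoc4 were near the lower limit, so these fitted values depend on it. Rem1 and Lrrtm3 differed by 3.41 and 3.40. Below zero the differences were -3.57 for Ripply3, -3.29 for Gabrb1, -2.04 for Tas2r135, -2.0 for Tcstv1, -1.96 for Fam83g and -1.85 for Acer2, where those of Ripply3 and Gabrb1 are fitted values that depend on 4-month rTg4510 signals near the lower limit.

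Of the 4 rTg4510 libraries of 2 months, 1 lay far from the other 3 in 7 of the 147 named genes by Dixon's criterion, which chance meets in about 1 of 20 groups. Replicate 3 stood apart in Fxyd6 (5.44), H2-DMa (8.05), Acaca (4.41), Ndufc1 (6.45) and Nlrc5 (2.79, below the others), and replicate 1 in Cfb (3.90) and Pecam1 (5.41).

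The rTg4510 library of 4 months that failed QC, replicate 3, was used only in the alternative with all 32 libraries. Its log2 gene signal was 9.0 for Cst7, 8.53 for Itgax and 10.56 for Lpl, each above every WT library of 2 and 4 months.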

How the results depend on the processing

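Moderated variances, quantile normalization, the filter on low values, the pseudocount and all 32 libraries each kept the rTg4510 counts within 1.5 times. With all 32 libraries 788 of 1368 DEGs were shared with the 1187 reported, and with only the groups compared 625 of 666. With only the groups compared, rTg4510 gave 483 up-regulated and 183 down-regulated DEGs, so that the share of up-regulated ones was 72.5% instead of 63.1%, and WT gave 0 and 0 (1650 genes at an unadjusted p under 0.05). By FDR alone rTg4510 gave 1809 and 1019, WT 13 up-regulated, and the difference 386 below zero. WT gave 1 up and 0 down with all 32 libraries (779 at an unadjusted p under 0.05), 13 and 6 under quantile normalization, and 4 down with the filter. Leaving out 1 library gave 620 to 785 up-regulated and 306 to 442 down-regulated DEGs in rTg4510, 3 to 13 and 0 to 5 in WT, and 472 to 786 differences above and 106 to 215 below zero. The fewest below zero, 106, 107 and 110, came without rTg4510 4 months replicate 4, WT 4 months replicate 4 and rTg4510 2 months replicate 4. The WT extremes came without WT 4 months replicate 4 (3 up) and replicate 2 (13 up and 5 down). The 0 down came without that replicate 4 or without replicate 1, 2 or 3 of WT at 2 months, with 1380 to 1784 genes at an unadjusted p under 0.05. Same-numbered libraries of 2 and 4 months did not deviate together in rTg4510 (r of 0.0104 to 0.061). Between genotypes at 2 months same-numbered libraries had r of 0.0649 to 0.167, and differently numbered ones at most 0.0816. At 4 months same-numbered libraries of the genotypes had r of -0.0999, 0.124 and -0.0819. Library numbers were not taken as pairs in the main models, and replicate blocks served as alternatives. With the replicate block rTg4510 gave 749 and 396 DEGs, WT 1 and 0 (1703 at an unadjusted p under 0.05), and the difference 717 and 153, or 622 and 176 with the block within age. The value of Jund reversed to 0.20 with all 32 libraries. Of 136 named genes called, 75 were called under every alternative, 61 lost the call under at least 1, and 34 of these without at least 1 library. The cause of these shifts was not tested. The signals carry no read totals per library, so limits set by depth are not given in counts.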
